A study of Mus musculus with 6 samples.

Results

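The Siglec family and Sirpa were followed in RNA of tumor-associated macrophages (TAMs) from Lewis lung carcinoma (LLC) tumors, LLC being a mouse lung carcinoma cell line grown here under the skin. The group holds 8 of the 22377 genes in the count table, namely Siglec1, Siglece, Siglecf, Siglecg, Siglech, Cd33, Cd22 and Sirpa, and each was found by its symbol. The genes were chosen by family, but with the difference between the groups of libraries already known. Their values in that comparison are therefore given as a description, without a p-value. All 8 passed the filter on low counts, which left 13884 genes to be tested. The study compared 3 libraries labelled wt with 3 labelled ko, the latter also described as a knockdown, and the labels number each library as its own biosample. In a legend on these data, the paper gives fewer mice in a group than there are libraries. Whether each library came from a different mouse was not resolved, and the errors given here measure the spread between these libraries, which may be technical in part. The paper describes these groups as Npm1+/+ and heterozygous Npm1+/- mice of both sexes, implanted with LLC cells as young adults, and a knockdown and a heterozygous genotype are not the same thing. How the allele was made is not given in the sources used here. The paper describes the RNA as coming from sorted CD45+ CD11b+ F4/80+ cells, whereas the labels give tumor tissue, and this difference was not resolved.

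Siglecs are receptors of leukocytes that bind sialic acid, the sugar found at the tips of many glycan chains. Most of them carry immunoreceptor tyrosine-based inhibitory motifs (ITIMs) in the cytoplasmic tail, which recruit the phosphatases Ptpn6 (SHP-1) and Ptpn11 (SHP-2) once a Src family kinase has phosphorylated the tyrosine. Sirpa is not a Siglec. It binds the protein Cd47, the "do not eat me" signal on healthy and tumor cells, but its tail carries the same kind of motif and restrains phagocytosis by macrophages.

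The genes differ in these motifs, which were searched in the longest complete coding sequence of each gene in GENCODE for the mouse build GRCm38. The pattern was isoleucine, leucine, valine or serine, any residue, tyrosine, any 2 residues, then isoleucine, leucine or valine, located after the most hydrophobic stretch of the protein. Cd22 had 4 matches, Siglecg and Sirpa 3 each, Siglecf 2 and Siglece 1. Siglec1, Siglech and Cd33 had 0. The tails after that stretch were 141 residues long in Cd22, 121 in Sirpa and 37 in Siglec1. In Sirpa a further tyrosine at residue 464, and in Siglece one at residue 455, lie in the related pattern that starts with threonine, which is not counted among these matches. The codons around the tyrosines of both patterns in Sirpa and Siglece, the receptors with such motifs that were highest in these libraries, are shown with the tyrosine codon in capitals.
Sirpa, tyrosine 440: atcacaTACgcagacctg
Sirpa, tyrosine 464: acagaaTATgcaagcatt
Sirpa, tyrosine 481: ctcaccTATgctgacctg
Sirpa, tyrosine 505: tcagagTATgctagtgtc
Siglece, tyrosine 432: atacatTATgcgaccctc
Siglece, tyrosine 455: acggagTACtcagagata

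RefSeq promoters, from 250 bases before to 50 bases after the start of the gene, were at hand for 6 of the 8 genes, Siglec1 and Sirpa being without one. They were searched on both strands for GAGGAA, the core bound by the myeloid and B cell factor PU.1. The promoter of Siglece (GRCm38.p6, chr7:43660112-43660411, minus strand) held 3 copies, each on the strand opposite to the gene and so written TTCCTC, with their first bases 87, 36 and 11 bases before the start. Siglecg held 2 in one of its 2 annotated promoters and 0 in the other. Siglecf, Siglech and Cd33 held 1 each and Cd22 held 0. Of 32851 promoters of this length, 28.3% held at least 1 copy and 0.68% held at least 3. The Siglece promoter is shown because it held the most, with the copies in capitals.
Siglece: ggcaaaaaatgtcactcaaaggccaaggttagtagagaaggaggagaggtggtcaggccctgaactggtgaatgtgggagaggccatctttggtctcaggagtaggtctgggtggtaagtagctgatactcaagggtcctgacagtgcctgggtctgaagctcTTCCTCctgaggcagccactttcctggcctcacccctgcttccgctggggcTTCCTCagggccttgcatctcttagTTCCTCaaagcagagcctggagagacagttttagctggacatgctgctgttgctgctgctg

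Total counts lay between 36550775 and 38147320 per library, and at this depth the 3 counts that a count of 0 allows correspond to 0.0716 to 0.0846 CPM (counts scaled to library size with TMM factors), for counting error only. On the first principal component, with 67.99% of the variance, wt replicate 1 stood at -108 and the other libraries between -4.54 and 52, so values are also given without it. Npm1 itself was at 142, 380 and 381 CPM in wt replicates 1, 2 and 3 and at 441, 499 and 343 in ko replicates 1, 2 and 3. Its log2 fold change was 0.51 ± 0.36 SE (adjusted p = 0.436 in edgeR's quasi-likelihood test). Only wt replicate 1 lay below the range of the libraries labelled ko. The transcript of the targeted gene was not reduced under the ko label, and all directions below are those between the libraries as labelled. The 12 macrophage markers were all well detected, with a summed level of 12490 to 14890 CPM in the libraries labelled wt and 7471 to 12620 in those labelled ko. The fibroblast list summed to 26.2 to 514 CPM in the former, lowest in wt replicate 1, and to 374 to 744 in the latter.

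To compare genes with each other, levels were taken per length, as the deposited FPKM values. Sirpa was the highest of the 8, with 77.8 ± 20.7 FPKM (SD, n = 6). Cd33 followed with 30.4 ± 3.38, and Siglece, the main inhibitory Siglec of mouse neutrophils and macrophages, with 13.5 ± 2.67. The ranges of these 3 genes did not overlap with each other or with that of the next gene. Siglecg had 4.41 ± 1.02 FPKM and Siglec1 had 3.07 ± 0.969, and Siglecg was the higher of the pair in 5 of 6 libraries. Cd22 had 1.95 ± 1.15 and was below Siglec1 in 5 of 6 libraries. Siglecf, at 0.462 ± 0.38, was below Cd22 and above Siglech, at 0.109 ± 0.0678, in each of the 6 libraries, although the ranges of neighbors touched from Siglecg downwards. The 4 upper genes varied at most 2.18-fold between the lowest and the highest library. Cd22 varied 6.6-fold, Siglecf 5.94-fold and Siglech 15.5-fold.

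**Figure D1:**
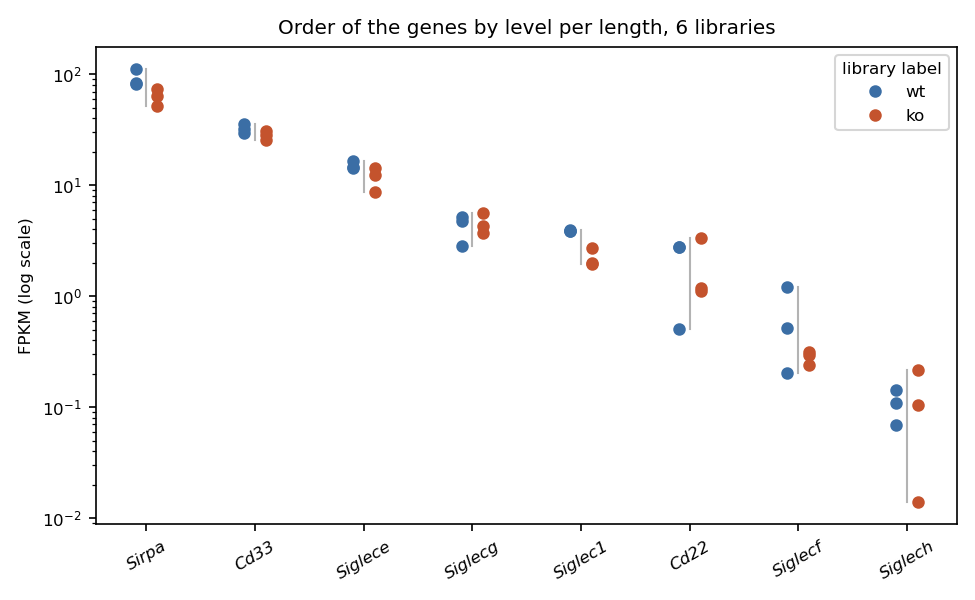
FPKM (log scale) of each of the 8 genes in the 6 libraries, blue for wt and orange for ko, ordered by mean level; the grey line spans the lowest and highest library. The ranges of Sirpa, Cd33 and Siglece are separate, and from Siglecg downwards neighboring ranges overlap.

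Sirpa and Siglec1 stood lower in every library labelled ko than in any labelled wt. Sirpa, on chromosome 2 of GRCm38 (129592835 to 129632228, plus strand), was at 764, 563 and 531 CPM in wt replicates 1, 2 and 3 and at 383, 286 and 487 CPM in ko replicates 1, 2 and 3. Its highest library was wt replicate 1 and its lowest ko replicate 2. On average this was 619 ± 127 against 385 ± 101 CPM (SD, n = 3 each), a fitted log2 fold change of -0.69 ± 0.23 SE, or -0.51 without wt replicate 1.
Siglec1 (CD169, sialoadhesin) is a large adhesion receptor with a short tail, found on resident and interferon-exposed macrophages. It lies on the same chromosome (131069220 to 131086765, minus strand). The libraries labelled wt held 27.6, 27.3 and 25.9 CPM and those labelled ko held 12.5, 11 and 18.4. The wt values lay close together, and the nearest ko value, that of replicate 3, was clearly apart from them. On average this was 26.9 ± 0.938 against 14 ± 3.91 CPM (SD, n = 3 each), a log2 fold change of -0.95 ± 0.21 SE and a fold of 0.518. Without wt replicate 1 it was -0.94.

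Siglece and Cd33, both on chromosome 7, differed less. Siglece (43651070 to 43660161, minus strand) was at 36.2, 32.6 and 30.1 CPM in wt replicates 1, 2 and 3 and at 24.1, 15.7 and 30.4 in ko replicates 1, 2 and 3. Here ko replicate 3 lay just above wt replicate 3, so that the groups overlapped in CPM, and ko replicate 2 was the lowest. The log2 change came to -0.50 (SE 0.24), or -0.43 without wt replicate 1.
Cd33 (43524216 to 43544428, minus strand), a Siglec of myeloid cells without a matching ITIM in the mouse, was at 102.5, 94.5 and 107 CPM in the libraries labelled wt and at 79.5, 66.5 and 94.5 in those labelled ko. The groups were separate in CPM only by the second decimal, with 94.48 in wt replicate 2 against 94.45 in ko replicate 3. The log2 change came to -0.34 (SE 0.15), and -0.33 without wt replicate 1. In FPKM, which are not TMM-scaled, Cd33 overlapped (29.7 in wt replicate 2 and 30.9 in ko replicate 3) and Siglece did not (14.38 in wt replicate 3 and 14.32 in ko replicate 3), so the separation of either gene hung on the scaling.

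**Figure D2:**
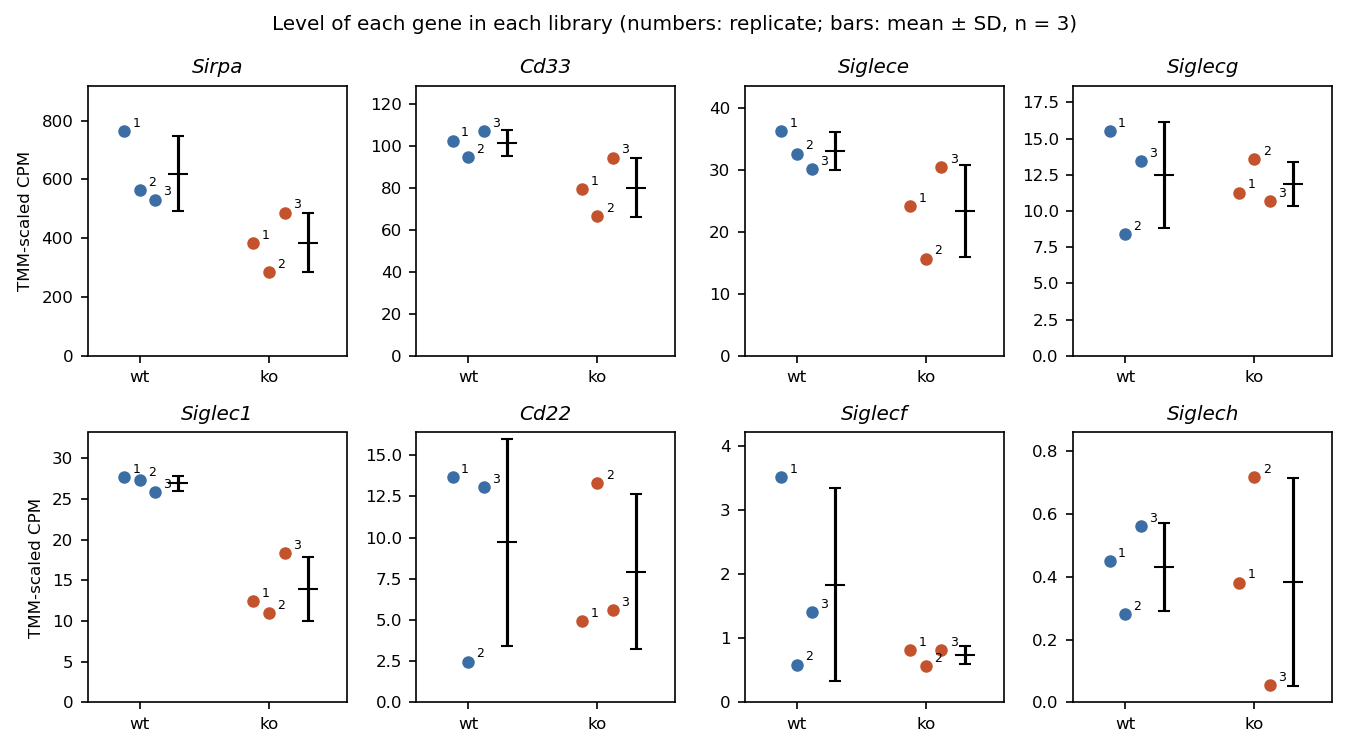
TMM-scaled CPM of each gene in each library, with the replicate number beside each point and the mean ± SD (n = 3) as a bar; each panel has its own linear axis from 0. Sirpa and Siglec1 are lower in all 3 libraries labelled ko, and Cd22 is high in wt replicates 1 and 3 and in ko replicate 2.

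Cd22 and Siglecg are the Siglecs of B cells, where they restrain the B cell receptor, and Siglecg is also found on other leukocytes. Cd22 (chromosome 7, 30865402 to 30880342, minus strand) was at 13.6, 2.48 and 13.1 CPM in wt replicates 1, 2 and 3 and at 4.91, 13.3 and 5.58 in ko replicates 1, 2 and 3. It was thus high in 2 libraries of one label and 1 of the other, and its log2 fold change of -0.29 was smaller than its standard error of 0.64 and turned to 0.03 without wt replicate 1. The same libraries were high for the B cell list. This list of 10 genes (Cd79a, Ms4a1 and others) summed to 44.9, 7.64 and 46.1 CPM in the wt replicates and to 17.5, 77.8 and 15.2 in the ko replicates. No gene of the list was at 0 in all libraries. Cd22 amounted to 28% to 36.8% of the summed list in 5 libraries and to 17.1% in ko replicate 2. What part B cells had in the Cd22 level was not tested. An antisense gene, Gm29439, overlaps exons of Cd22, and whether strand was used in the counting is not given in the sources used here.
Siglecg (43408204 to 43418358, plus strand) followed the B cell list less closely. Its level was 15.5, 8.43 and 13.5 CPM in the wt replicates and 11.3, 13.6 and 10.7 in the ko replicates. It was lowest in wt replicate 2, where the B cell list was lowest too, but it came to 110% of the list there and to 17.4% in ko replicate 2. Its log2 change came to -0.07 (SE 0.25), turning to 0.11 without wt replicate 1. Of the runs of 50 bases in its coding sequence, 10.75% also occur in transcripts of another gene, Gm29791, so reads may have been divided between them.

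**Figure D3:**
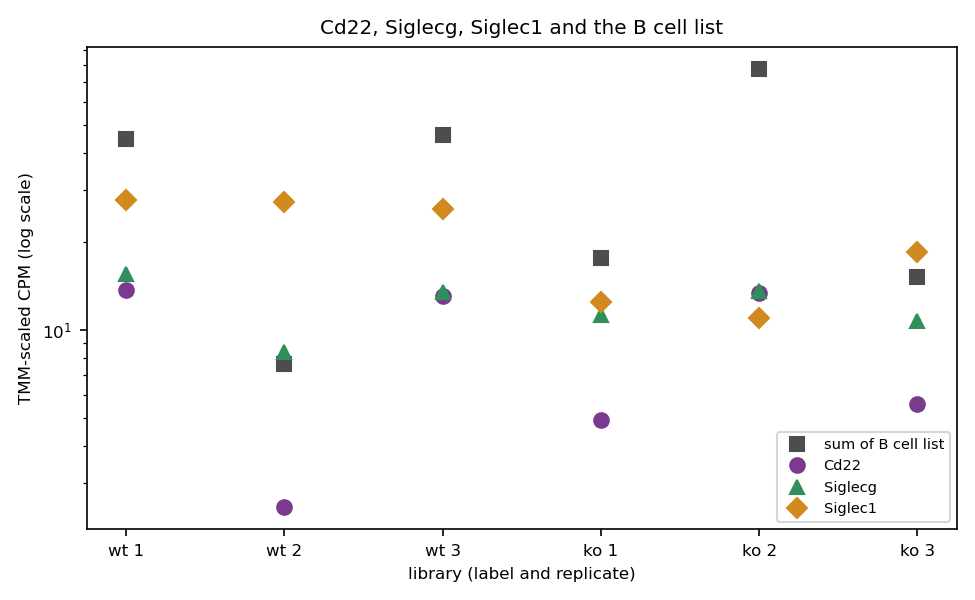
TMM-scaled CPM (log scale) of Cd22, Siglecg and Siglec1 and of the summed B cell list in each of the 6 libraries. Cd22 and the B cell list are both lowest in wt replicate 2 (2.48 and 7.64 CPM), whereas Siglec1 is near its highest there (27.3 CPM).

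Siglecf and Siglech were the lowest of the 8, and Siglech alone fell under 10 counts in a library. Siglecf (43351341 to 43359531, plus strand), the Siglec of eosinophils and alveolar macrophages, had 125, 21 and 53 counts in wt replicates 1, 2 and 3 and 32, 24 and 30 in the ko replicates. Only wt replicate 1, and to a lesser degree wt replicate 3, stood above the rest. The log2 change came to -1.32 (SE 0.63) with wt replicate 1 and -0.46 without it. The eosinophil list summed to 64.5 CPM in wt replicate 1 and to 22.8 to 32.7 in the others, nearly all of it from Ear2. Its other tested gene, the eotaxin receptor Ccr3, lay the other way, with 18, 28 and 22 counts in the wt replicates and 50, 79 and 34 in the ko replicates (log2 fold change 1.12, SE 0.42, adjusted p = 0.328 in edgeR). The 4 untested genes of the list, among them the granule genes Prg2 and Prg3, had between 0 and 25 counts. Of the 6 alveolar macrophage markers, Chil3 (26330 to 84261 counts) and Pparg (166 to 329) were highest in wt replicate 1, as Siglecf was, while Marco, Krt79, Car4 and Fabp1 had at most 20 counts in any library. What part either cell type had in the Siglecf level was not tested.
Siglech (55768178 to 55778925, plus strand), a marker of plasmacytoid dendritic cells that signals through the adaptor DAP12, had 16, 10 and 21 counts in the wt replicates and 15, 30 and 2 in the ko replicates. The libraries labelled ko held both the highest and the lowest value. The log2 fold change of -0.15 was smaller than its standard error of 0.78, and the within-group SD was 1.08 in log2 CPM. The list of 8 genes for that cell type summed to 94.3 to 114 CPM in the libraries labelled wt and to 108 to 113 in those labelled ko, most of it from Tcf4 and Runx2, which other cells also express. Ly6d shared its highest and lowest library with Siglech, at 43, 5 and 41 counts in the wt replicates and 24, 87 and 4 in the ko replicates. Spib had 33 to 300 counts and Ccr9 6 to 30, both highest in ko replicate 2, as Siglech was, but lowest in wt replicate 2. Pacsin1 had 9 to 69, highest in wt replicate 3 and lowest in ko replicate 3. Klk1 and Cox6a2 had at most 4 and 7. The B cell list was also highest in ko replicate 2 (77.8 CPM) and lowest in wt replicate 2 (7.64 CPM). What part plasmacytoid dendritic cells had in the Siglech level was not tested.

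Over the 8 genes, the fitted log2 change came to below 0 for each, with a median of -0.42 against 0.02 over all 13884 genes tested, of which 47.9% were below 0. In edgeR's quasi-likelihood test no gene of the table had an adjusted p under 0.05 (percent called 0), and so none of the 8, while 2112 genes had an unadjusted p under 0.05 and limma also called 0. DESeq2 called 1 of the 8, Siglec1, against 0.263% of all genes. In CPM the libraries labelled ko were all below those labelled wt for 3 of the 8 (Siglec1, Sirpa and Cd33), against 12.6% of genes tested. The opposite separation was found for 0 of the 8, against 13.3%. Since the genes were named with this comparison known, nothing is read from these counts.
The macrophage markers also stood lower in the libraries labelled ko. All 12 had a log2 fold change below 0, with a median of -0.50, and 0 were called. In bulk RNA, fewer macrophages and less RNA of these genes in each macrophage cannot be told apart. The counts of each of the 8 genes were therefore also taken per 10000 counts of the macrophage list. This scale was set mostly by Cd14 (3395 to 7870 CPM over the 6 libraries) and Itgam (1492 to 2975 CPM). On this scale Sirpa was at 596, 378 and 425 in the wt replicates and at 388, 382 and 386 in the ko replicates, which lay within the wt range. Siglec1 was at 21.5, 18.3 and 20.7 and at 12.6, 14.7 and 14.6, and it was the only one of the 8 whose groups stayed separate. With this scaling, 0.583% of all genes tested had every library labelled ko below those labelled wt, and 26% had every one above. It averaged 20.2 ± 1.66 against 14 ± 1.17 (SD, n = 3 each).
With edgeR scaled to this list, the median of all genes moved by 0.48 to 0.50, and 11.8% of genes were below 0. All 8 genes lay below that median, Siglech by the least. On this scaling the log2 fold change was -0.53 (SE 0.32) for Siglec1, -0.28 (0.22) for Sirpa and -0.09 (0.30) for Siglece. It turned above 0 for Cd33 (0.09), Siglecg (0.42), Cd22 (0.26) and Siglech (0.46).

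**Figure D4:**
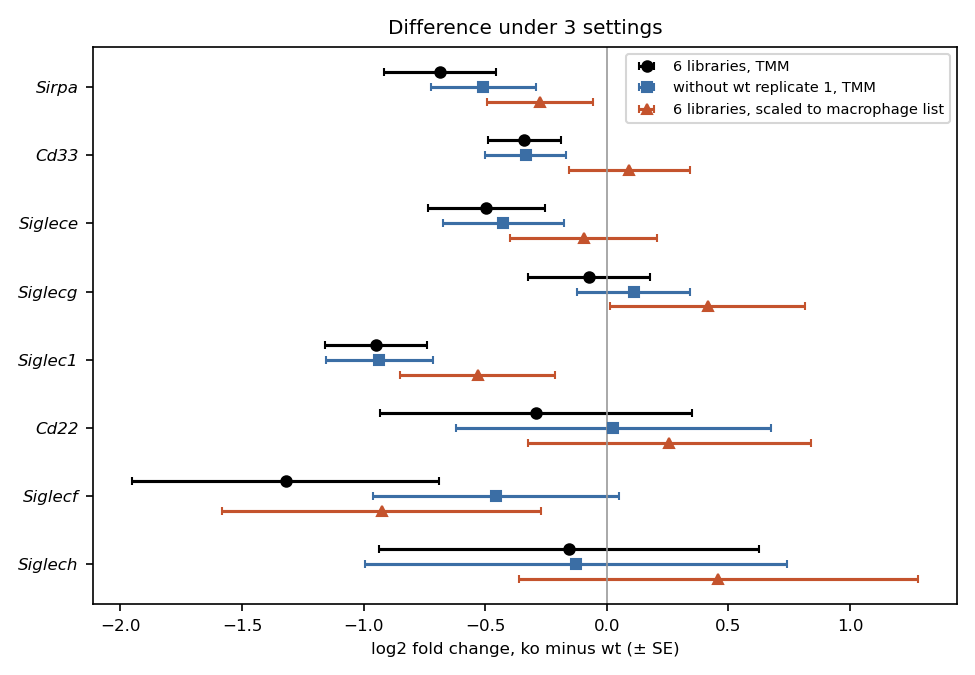
Fitted log2 fold change, ko minus wt, with its standard error, for each gene under TMM scaling with 6 libraries, without wt replicate 1, and scaled to the macrophage list. Siglec1 is at -0.95, -0.94 and -0.53, and Siglecf moves most when wt replicate 1 is left out, from -1.32 to -0.46.

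The genes were next compared by their pattern over the 6 libraries, as the root mean square difference of log2 CPM after centering each gene on its mean, where 0 is the same pattern. Among the 8, Siglece and Sirpa were most alike (0.137), followed by Siglece and Cd33 (0.197) and Siglec1 and Sirpa (0.215). Siglecf and Siglech were the least alike (root mean square difference 1.15). Among all tested genes, the one nearest to Sirpa was Ttyh3 (0.0125), against a median of 0.522 over all genes. The nearest to Siglec1 were Rnf150 (0.0817), Thbd (0.114) and Sdc3 (0.123), with a median of 0.609. For Siglece they were Lpcat2 (0.0446), Mcemp1 (0.0582) and Atp6v0a1 (0.0602), and for Cd33 they were Exoc6 (0.0221), Kat2b (0.0437) and Lgals8 (0.0467).
For Cd22 the genes of nearest pattern included Spib (0.17), a factor of B cells and plasmacytoid dendritic cells, and Ell3 (0.226). For Siglecg they were Ptcd2 (0.0566), Patz1 (0.0667) and Mlxip (0.0671). For Siglecf they were S1pr5 (0.121), 9230116N13Rik (0.195) and Nfe2 (0.203). The nearest to Siglech were Rnf227 (0.304), F630040K05Rik (0.31) and Slc22a17 (0.347), with a median of 0.974. At its 2 to 30 counts, counting error adds to such differences.

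Downstream of the ITIM stand the phosphatases and kinases that these receptors share. Of 11 such genes, 11 had a log2 fold change below 0 (median -0.49). Scaled to the macrophage list, where 11.8% of all genes were below 0 (median 0.50), 7 of the 11 were (median -0.06). None was called in edgeR over all genes tested, and 7 were lower at an unadjusted p under 0.05, as were 8.31% of all genes tested. Ptpn6, the phosphatase SHP-1, was at 386, 223 and 239 CPM in the wt replicates and at 147, 103 and 192 in the ko replicates. Its groups did not overlap, and its log2 change came to -0.94 (SE 0.29, adjusted p = 0.328 in edgeR). Inpp5d (SHIP-1) stood at -0.59 on the same log2 scale (adjusted p = 0.328 in edgeR). Ptpn11 (SHP-2) differed least, with -0.19 (adjusted p = 0.396).
The SIRP-beta receptors, activating relatives of Sirpa that signal through DAP12, were abundant. Sirpb1a, Sirpb1b and Sirpb1c had log2 fold changes of -0.47, -0.59 and -0.33, and 0 of the 3 were called. They resemble each other, and the counting may have divided reads among them, whereas no run of 50 bases in the coding sequence of Sirpa was found in a transcript of another gene. DAP12 itself, Tyrobp, was at 884, 708 and 638 CPM in the wt replicates and at 561, 402 and 665 in the ko replicates, and the groups overlapped. Its log2 change came to -0.45 (adjusted p = 0.334 in edgeR). Of the genes listed with Tyrobp, Syk stood at -0.23 and Hcst at 0.34, and neither was called in edgeR. The groups of Hcst did not overlap, with the libraries labelled ko higher, as for 13.3% of all genes tested.
Of the other Siglecs, Mag was at 24 to 44 counts, and Siglec15 was too low to be tested, with 2, 4 and 2 counts in the wt replicates and 9, 17 and 8 in the ko replicates.

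Cd47, the ligand of Sirpa, was steadier than its receptor. It was at 289, 305 and 292 CPM in the wt replicates and at 261, 219 and 288 in the ko replicates. Each ko value lay below each wt value, but ko replicate 3 only just, and the log2 change came to -0.21 (SE 0.13, adjusted p = 0.404 in edgeR). Thbs1, the secreted thrombospondin-1 that also binds Cd47, was the most abundant of all the genes described here, from 28970 to 37930 CPM in the libraries labelled wt and from 16420 to 29600 in those labelled ko. These ranges overlapped, and its log2 change came to -0.56 (adjusted p = 0.338). Cd24a, the protein bound by Siglecg, had a log2 fold change of 0.05. None of the 8 ligand and carrier genes was called in edgeR, and 5 were below 0.
The enzymes that make, attach and remove sialic acid did not move as one. Of the 6 tested genes of sialic acid synthesis, 4 were above 0 (median 0.23). Scaled to the macrophage list, which left 11.8% of all genes below 0, 6 were above 0 (median 0.71). Gne, the first enzyme of the pathway, was at 3.97, 3.86 and 3.56 CPM in the wt replicates and at 4.83, 6.16 and 4.35 in the ko replicates. The groups did not overlap, and its log2 change came to 0.43 (SE 0.24, adjusted p = 0.366 in edgeR). Of 13 tested sialyltransferases, which attach the sugar, 10 were below 0 (median -0.12). Scaled to the macrophage list, 0 were below 0 (median 0.36, against 0.50 over all genes). In limma on log2(FPKM + 1), 5 were, against 4705 of all 13884 genes. The most abundant was St3gal1, at 354 to 592 CPM over the 6 libraries, with a log2 fold change of -0.30. Among the 5 tested genes that remove or recycle sialic acid, the lysosomal sialidase Neu1 and its protective protein Ctsa had log2 fold changes of -0.47 and -0.52, and Neu3, the sialidase of the plasma membrane, of 0.58 at 14 to 31 counts. Over these 8 lists, 0 of 50 tested genes were called in edgeR and 0 in DESeq2, 10 were lower and 0 higher at an unadjusted p under 0.05 (against 8.31% and 6.9% of all genes tested), and the lowest adjusted p was 0.328.

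**Figure D5:**
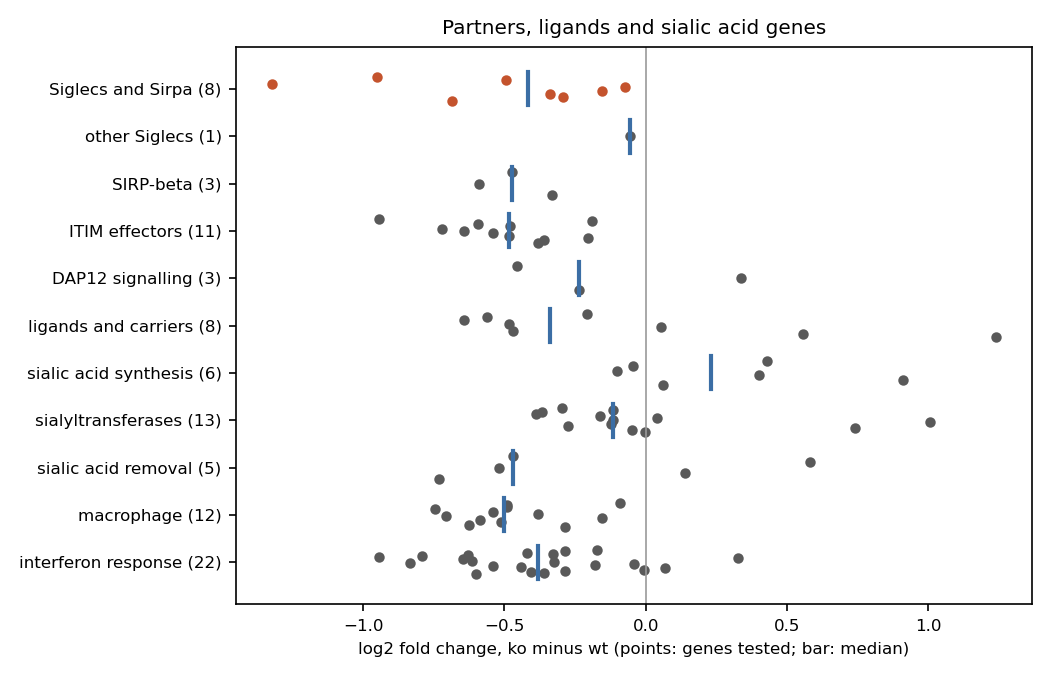
Fitted log2 fold change, ko minus wt, of each tested gene in each list, with the number of tested genes in brackets and the list median as a blue bar. The medians of the ITIM effectors (-0.49) and of the macrophage markers (-0.50) lie close to that of the Siglecs and Sirpa (-0.42), and that of sialic acid synthesis is above 0 (0.23).

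Siglec1 is an interferon-induced gene, and the interferon list was examined beside it. Of 22 tested genes, 20 had a log2 fold change below 0 (median -0.38, and -0.44 without wt replicate 1), 11 had all libraries labelled ko below those labelled wt (against 12.6% of all genes tested), and 0 were called in edgeR and 0 in DESeq2. Scaled to the macrophage list, 8 were below 0 and the median was 0.13, against 11.8% and 0.50 over all genes tested. Oas3, for example, was at 112, 73.1 and 73.1 CPM in the wt replicates and at 46.7, 34.7 and 52.8 in the ko replicates, and these did not overlap. Ifit1 did, at 26.7, 51.3 and 41.9 against 40.9, 36.9 and 28.7. The part of interferon in the Siglec1 level was not tested.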

How the data were processed

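RNA of 6 libraries was measured, 3 labelled wt and 3 labelled ko. The authors deposited unnormalized counts for each gene together with FPKM values. A check on the files found these FPKM to be each count over its library total and a single gene length. The submitters' processing notes name the build mm10. The aligner, the counting tool and the annotation are not given in the sources used here. The members and gene lists were chosen with earlier results of these data known.

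Counts were fitted over the whole table with edgeR 4.0.16 in R 4.3.3 (filterByExpr, TMM factors, glmQLFit, glmQLFTest), with Benjamini-Hochberg adjustment over 13884 genes and a threshold of 0.05. A prior count of 2 entered log2 CPM, and each SE was obtained as |log2 fold change| over the root of the F statistic. The p-values measure the spread between these libraries. Libraries of a group differed by more than sampling noise (chi-square per gene 33.6 to 151). Alternatives used DESeq2 1.42.0, limma 3.58.1, other scalings, other filters, a replicate block and left-out libraries. Named genes were Npm1, the 8 members, the fixed lists and, for each member, the 3 genes of nearest pattern, some of which are not reported here. Coordinates are from GENCODE M21 and promoters from RefSeq, both on GRCm38.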

Additional observations from a re-analysis of the deposited data

How the results depend on the processing

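Of 135 values of the 8 genes in the alternatives, 128 moved by less than 1 within-group SD, and 18 changed sign, all in Siglecg, Siglech, Cd22 and Cd33. Siglec1, Sirpa, Siglece and Siglecf stayed below 0 in each alternative, from -1.22 to -0.53, from -0.90 to -0.28, from -0.74 to -0.09 and from -1.75 to -0.31. The highest value came from scaling to the macrophage list, or for Siglecf from limma on log2(FPKM + 1). In edgeR with TMM, no gene was called in any fit that left out a library. Sirpa ranged from -0.90 without ko replicate 3 to -0.51 without wt replicate 1. The number of the 8 genes with separate groups ranged from 3 to 4 in these fits. Fewer libraries separate more easily and the share over all genes was not taken, so nothing is read from that number. DESeq2 called 36 genes over 6 libraries. Without wt replicate 1 and ko replicate 3 it called 1283 of the 21760 genes fitted. Among these were 10 of the listed pathway genes and Siglec1, Siglece, Cd33 and Sirpa. Of the libraries labelled ko, replicate 3 was nearest to those labelled wt on the first principal component (11.7). The 8 genes were named with this comparison known, so nothing is read from their calls. The cause of the larger number was not tested. Scaled to the macrophage list, edgeR called 1 gene and 1 of the 8 genes had separate groups, against 0.583% of all genes lower and 26% higher. The limma fit on log2(FPKM + 0.1) moved the median of all genes from 0.02 to 0.16. Same-numbered libraries did not deviate together from their group means (correlations -0.241, 0.06 and -0.337), so no pairing by number was seen. With 3 libraries in a group and wt replicate 1 far from the rest, this check cannot show that there was none. With the replicate block 0 genes were called. Siglech, with 2 to 30 counts, is limited by its low counts and by the spread between libraries of a group.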

Other observations

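Sirpd, a gene of the SIRP family that is in none of the lists and was singled out after its values were seen, was at 82.1, 52.2 and 48.4 CPM in wt replicates 1, 2 and 3 and at 37.7, 22.4 and 45.7 in ko replicates 1, 2 and 3. Its highest and lowest libraries were those of Sirpa, and the groups did not overlap. Sirpd had a log2 fold change of -0.79 (SE 0.30, adjusted p = 0.328 in edgeR's quasi-likelihood test). Siglecl1, likewise in no list, had 13 to 45 counts per library, with overlapping groups and a log2 fold change of 0.10 (SE 0.57).

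Marker lists of other cells that may carry Siglecs stood on opposite sides. The 10 tested neutrophil genes all had a log2 fold change below 0 (median -0.80), and Csf3r, the receptor for G-CSF, was at 527, 379 and 394 CPM in the wt replicates and at 285, 160 and 288 in the ko replicates. The 7 tested T cell genes were all above 0 (median 1.33, and 0.91 without wt replicate 1). No gene of either list was called in edgeR, and 5 were lower and 3 higher at an unadjusted p under 0.05, against 8.31% and 6.9% of all genes tested. Neutrophils also express Siglece and Sirpa, and the part of their number in the levels of these genes was not tested.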
